A study of Mus musculus with 111 samples.

Results

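The genes described here are the integrin and laminin genes of mouse gastrocnemius muscle. They were taken by symbol from the array annotation, as every symbol that starts with Itga or Itgb, or with Lama, Lamb or Lamc and a digit, with 1 probe set kept per gene. The rule found 39 genes among the 18194 genes that have a probe set of their own, and 38 of them were among the 16029 genes bright enough to test. They are 25 integrin subunits (16 alpha and 9 beta), 10 laminin chains and 4 genes whose symbols fit the rule but which are not subunits: Itgb1bp1, Itgb1bp2, Itgb3bp and Itgbl1. Lama1 exceeded the 40th percentile of the array in 4 of 111 arrays and was not tested.

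The study compared 2 ways of making a calf muscle waste in 8-week-old male C57BL/6 mice, a cast on the hindlimb and a cut of the Achilles tendon (tenotomy), after 2, 7 and 14 days. RNA of whole gastrocnemius was measured on 111 arrays of 70 mice in 16 groups, each array holding 1 leg. In the casting cohort the right leg was cast (10, 7 and 9 arrays at days 2, 7 and 14) and the uncast left leg was the control (9, 8 and 9 arrays). Sham-operated mice, whose Achilles tendon was isolated and handled but left whole (3, 7 and 8 arrays at days 2, 7 and 14), and naive mice (7 arrays) complete the design. In the tenotomy cohort both legs were also taken, with 5, 7 and 5 arrays per side. The operated side of these mice is in doubt: the study's description puts the cut on the right and names the untreated left legs as the controls, whereas each left-leg sample is marked tenotomy and each right-leg sample control. Legs are therefore named here by side, and which leg was operated was not decided from the data. Where nothing else is said, n counts animals or legs, and p-values measure the spread between them. A muscle taken whole holds fibres, blood, vessels, connective tissue and the edge of the tendon, so a change in the number of cells of a type and a change in RNA per cell cannot be told apart.

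Integrins are receptors made of an alpha and a beta chain that tie the cell's cytoskeleton to the matrix outside it or to a neighbouring cell. Laminins are three-chain proteins of the basement membrane, the sheet that wraps each muscle fibre and each vessel. In muscle the pair of Itga7 and Itgb1 binds laminin made with the alpha chain Lama2. Leukocytes carry chains of their own, built on Itgb2, with which they attach to vessel walls and enter tissue.

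Promoters of 5 genes with large differences are shown first, because these genes are followed through the results. They are the 250 bases before the start in RefSeq's GRCm38.p6 annotation, 5′ to 3′ on the gene's strand. They cover chr7:128062390-128062639 (plus strand) for Itgam, chr7:128129300-128129549 (plus) for Itgax, chr15:103366792-103367041 (minus) for Itga5, chr12:31265043-31265292 (plus) for Lamb1 and chr14:123659890-123660139 (plus) for Itgbl1. Capitals mark matches, on either strand, to 4 short motifs: GAGGAA or TTCCTC, the core bound by the myeloid factor PU.1; GGGCGG or CCGCCC, the GC box; TGACTCA or TGAGTCA, the AP-1 site; and TATAAA or TTTATA, the TATA box. No printed matches overlapped.
Itgam: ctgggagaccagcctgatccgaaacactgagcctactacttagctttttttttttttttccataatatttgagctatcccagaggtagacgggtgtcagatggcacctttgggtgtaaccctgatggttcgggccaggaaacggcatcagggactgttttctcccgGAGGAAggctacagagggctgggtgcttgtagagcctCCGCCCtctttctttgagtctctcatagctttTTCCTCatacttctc
Itgax: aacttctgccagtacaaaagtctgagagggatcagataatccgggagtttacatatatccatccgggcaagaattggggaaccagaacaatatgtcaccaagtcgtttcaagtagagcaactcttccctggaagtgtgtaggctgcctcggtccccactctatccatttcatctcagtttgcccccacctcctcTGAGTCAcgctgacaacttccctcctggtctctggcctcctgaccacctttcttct
Itga5: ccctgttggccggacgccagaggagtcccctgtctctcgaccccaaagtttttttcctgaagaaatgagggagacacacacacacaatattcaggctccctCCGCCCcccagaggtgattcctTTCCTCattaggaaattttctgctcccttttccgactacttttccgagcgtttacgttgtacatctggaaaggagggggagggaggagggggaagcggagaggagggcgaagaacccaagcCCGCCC
Lamb1: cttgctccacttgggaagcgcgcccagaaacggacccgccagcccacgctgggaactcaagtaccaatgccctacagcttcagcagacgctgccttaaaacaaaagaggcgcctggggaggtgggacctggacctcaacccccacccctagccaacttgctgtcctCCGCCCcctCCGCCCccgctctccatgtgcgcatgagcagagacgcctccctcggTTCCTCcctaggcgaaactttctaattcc
Itgbl1: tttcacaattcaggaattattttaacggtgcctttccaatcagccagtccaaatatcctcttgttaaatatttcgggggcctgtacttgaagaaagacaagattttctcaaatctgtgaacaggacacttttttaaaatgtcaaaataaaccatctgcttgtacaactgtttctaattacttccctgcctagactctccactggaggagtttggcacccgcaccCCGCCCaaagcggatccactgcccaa

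The Itgam promoter held 2 PU.1 cores, 1 on each strand, and 1 GC box. The PU.1 core lay in 23.25% of 32851 promoters of the same length, the GC box in 32.74%, the AP-1 site in 4.46% and the TATA box in 12.37%. Of the 26 members with a promoter in the table, 13 held a PU.1 core, 9 a GC box, 1 the AP-1 site (Itgax) and 0 the TATA box. Itgax held no PU.1 core in this window, and Itgbl1 held only a GC box. A match is a run of letters and was not tested as a binding site.

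The defining markers of muscle fibres were bright on every array, with Ckm, the muscle creatine kinase, at 3744 signal units or more. Array medians lay between 16.14 and 26.36 units, no 2 arrays held the same values, and 3 arrays had a raised low end (1 each of sham day 14, cast day 7 and cast day 14). The log2 ratio of the 3′ to the 5′ probe set of beta-actin, taken here as a sign of RNA or labelling quality, averaged -1.19 in naive muscle. A negative ratio means that the 5′ probe set read higher. This ratio was the only one used as a covariate, and what set it in these muscles was not tested. It was higher in the right than in the left leg of 15 of 16 pairs of the tenotomy cohort, by 0.628 ± 0.442 (SD, n = 16), and in 7 of 25 pairs of the casting cohort (mean -0.170 ± 0.349, SD, n = 25). With this ratio as a covariate, 22 calls were lost and 2 gained among the members followed gene by gene between legs and against sham. A further 2 differences changed sign. Only some of these values are given below. Itga1, Itga6, Itga8, Itga9, Itga10, Itgae, Itgb3, Itgb8, Itgb1bp1, Lama3, Lama5 and Lamc3 were not among the members followed. Their calls were therefore not checked singly in this way.

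A gene was called where limma's moderated test, on log2(signal + 3.982) with the animal as a random block, gave an adjusted p under 0.05 over all genes tested. Between the cast and the uncast leg, 9 of 38 members were called at day 2 (1 higher, 8 lower), against 24.3% of all genes (11.0% higher, 13.3% lower). Only 2 were called at day 7 (1 in each direction), against 8.78% (4.22% higher, 4.56% lower), and 6 at day 14 (3 in each direction), against 13.3% (7.23% higher, 6.05% lower). Right minus left leg in the tenotomy cohort, which is the opposite sign to labelled tenotomy minus labelled control, 17 members were called at day 2 (15 higher, 2 lower), against 36.8% (20.8% higher, 15.9% lower). The day 7 count was 15 (13 higher, 2 lower), against 33.0% (18.4% higher, 14.6% lower), and that of day 14 was 11 (10 higher, 1 lower), against 23.2% (13.5% higher, 9.72% lower). As shares of the 38 members these counts are 23.7%, 5.26% and 15.8% in casting, at or below that of all genes at days 2 and 7, and 44.7%, 39.5% and 28.9% in the tenotomy cohort. The members' median log2 difference was -0.13, -0.04 and 0.10 in casting, beside -0.03, 0.01 and 0.04 for all genes, and 0.35, 0.29 and 0.29 in the tenotomy cohort, beside 0.02, -0.00 and 0.02.

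**Figure D1:**
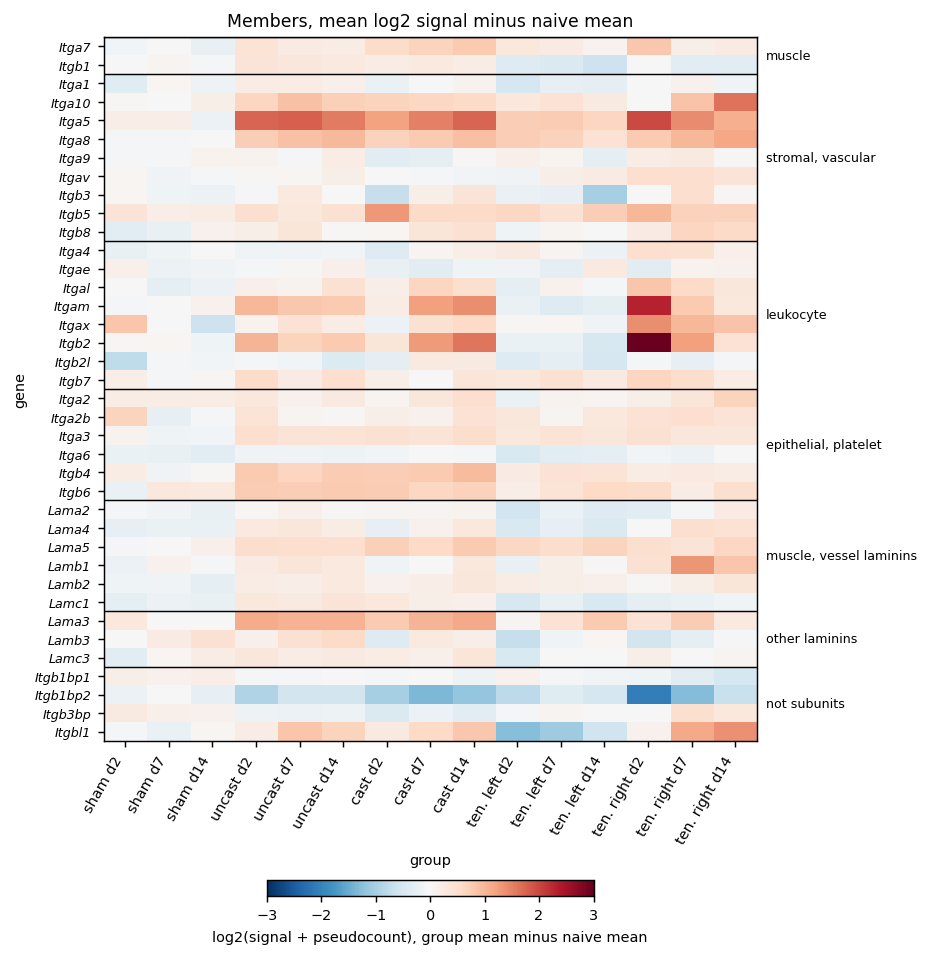
Mean log2(signal + pseudocount) of the 38 tested members (rows, grouped by role) in 15 groups (columns), each as the difference from the naive mean; red is higher and blue lower than naive. The strongest red is Itgb2 in the right legs of the tenotomy cohort at day 2 and the strongest blue is Itgb1bp2 in the same legs, while the 3 sham columns are mostly pale.

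The leukocyte chains Itgb2 and Itgam had the largest differences of the members at day 2 of the tenotomy cohort. Itgb2 is the beta chain shared by the leukocyte-specific integrins; in naive muscle its signal ran from 20.72 to 40.32, with a median of 32.96 (7 arrays). In the right legs of the tenotomy cohort at day 2 it read 229.1, 265.3, 266.7, 285.8 and 343.9, and in the left legs 16.0, 24.07, 25.57, 37.27 and 40.72. Every right leg of day 2 lay above every other array of the study, and every left leg lay within or below the range of naive and sham muscle. The right-minus-left log2 difference was 3.15 (SE 0.29, adjusted p = 5.254e-17, higher in 5 of 5 pairs). It was smaller later, 1.42 (SE 0.24, adjusted p = 8.131e-07, 7 of 7 pairs) at day 7 and 0.92 (SE 0.29, adjusted p = 0.01244, 4 of 4 pairs) at day 14. With the actin ratio as covariate the day 14 difference was 0.77 and was no longer called (adjusted p = 0.081), nor was it without left-leg replicate 1 (0.70).

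Itgam, the alpha chain that with Itgb2 makes Mac-1 of macrophages and neutrophils, was also far higher in those legs. Its signal was 92.02, 96.44, 110.6, 121.9 and 126.1 in the right legs at day 2 and 11.26, 14.44, 17.6, 18.12 and 18.85 in the left. The groups did not overlap, and the left legs lay within the naive range of 7.697 to 25.59. The log2 difference was 2.51 (SE 0.28, adjusted p = 5.568e-13) at day 2 and 1.17 (SE 0.24, adjusted p = 2.391e-05) at day 7. At day 14 it was 0.57 and did not pass the test.

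Itgax, the alpha chain best known from dendritic cells and also carried by macrophages, was called at all 3 times, least firmly at day 14. Right legs at day 2 read 37.14, 44.32, 50.65, 52.21 and 54.48 and left legs 10.91, 15.33, 15.84, 19.0 and 20.65. Right legs at day 14 still read 20.15, 21.11, 39.04, 41.19 and 41.28, and they overlapped the left legs only at the low end (4.173 to 23.71). The right-minus-left difference was 1.36, 0.93 and 0.93 at days 2, 7 and 14, each called. The day 14 call was lost when each animal had a fixed term of its own (0.58, adjusted p = 0.236), and without right-leg replicate 3 (0.83), right-leg replicate 4 (0.84) or left-leg replicate 4 (0.66). Against sham, however, the right-leg difference was 0.58 at day 2 and not called. The 3 sham arrays of day 2 (27.04, 28.52 and 36.53) were above the naive range of 7.691 to 22.07. At day 7 right legs were above sham by 0.676 to 1.08 over the alternatives, a call lost under 1 of these. At day 14 they were above sham by 1.45 (SE 0.29, adjusted p = 1.54e-05), with overlap.

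Itgal, the alpha chain of LFA-1 on lymphocytes and other leukocytes, was called at day 2 only, by 1.11 (SE 0.26, adjusted p = 0.000277, higher in 5 of 5 pairs), with 0.45 and 0.37 at days 7 and 14. Its signals were low, 22.35 to 37.48 in the right legs and 6.513 to 21.9 in the left at day 2, beside array 40th percentiles of 9.65 to 17.84. Itga4, the alpha chain of VLA-4 on many leukocytes, was called at day 7 (0.36), a call lost under quantile normalization (0.26), with array weights (0.34) and with no animal block or a fixed one (0.36), and it read -0.02 when its probe sets were averaged. Itgb7, Itgae and Itgb2l complete the class, and of these Itgae was called at day 7 (0.39), although its second probe set, nearly as bright, read -0.47 there. In all, 4, 5 and 2 of the 8 leukocyte chains were called at days 2, 7 and 14, all higher in the right leg, with median differences of 0.74, 0.42 and 0.40 against 0.02, -0.00 and 0.02 for all genes. The shares called were 50%, 62.5% and 25.0%, beside 36.8%, 33.0% and 23.2% of all genes.

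Macrophage markers moved with these chains. All 10 of 10 were higher in the right leg at days 2 and 7 and 9 of 10 at day 14, and their summed signal was 10370 to 13200 in the right legs of day 2, 760.1 to 1564 in the left legs and 1300 to 1714 in naive muscle. At day 7 the sum was 3150 to 7847 in right and 861.7 to 1842 in left legs, and at day 14 it was 2253 to 3819 and 948.4 to 1395. None of the 10 was listed at 0 on any array. Of 5 tested neutrophil markers, 1 was called at day 2, with a summed signal of 136.3 to 341.5 in right and 59.87 to 2995 in left legs. The part of cell numbers in the integrin differences was not tested.

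**Figure D2:**
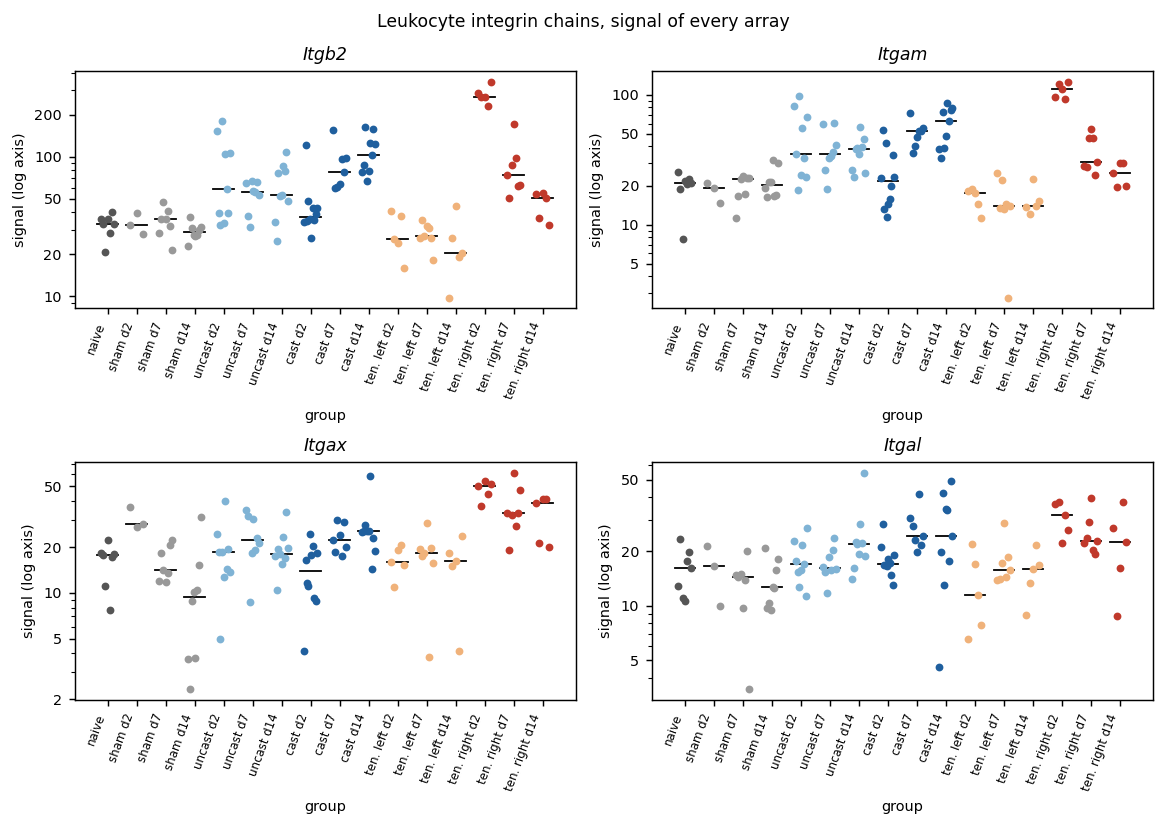
Signal of Itgb2, Itgam, Itgax and Itgal on every array (points; log axis) in the 16 groups, with a line at each group's median and the tenotomy cohort shown by side. For Itgb2 the 5 right legs of day 2 sit between 229.1 and 343.9, above all other arrays, and for Itgax the sham arrays of day 2 lie above the naive ones.

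In casting the sign of the difference changed between day 2 and day 14. At day 2 Itgb2 and Itgam were lower in the cast than in the uncast leg, by -0.66 (SE 0.21, adjusted p = 0.01241) and -0.79 (SE 0.20, adjusted p = 0.001508), the former not called with only the groups compared (adjusted p = 0.0879). The uncast legs, however, were spread widely, from 32.31 to 180.7 for Itgb2 with a median of 58.8, while cast legs had a median of 37.13. Itgb2 was lower in the cast leg in 6 of 9 pairs and Itgam in 8 of 9. One cast leg stood apart at 120.5, beside 26.31 to 48.2 in the other 9, and without it the differences were -0.81 and -0.91. At day 14 both genes were higher on the cast side, Itgb2 by 0.82 (SE 0.21, adjusted p = 0.004274, higher in 9 of 9 pairs) and Itgam by 0.62 (SE 0.21, adjusted p = 0.03132, 8 of 9 pairs). The Itgam call of day 14 was lost with quantile normalization (0.54), with no animal block (0.62) and without the 3 arrays of raised low end (0.55), with adjusted p up to 0.0803. Itgb2 then ran from 66.69 to 164.1 in cast and from 24.8 to 108.1 in uncast legs, so the groups overlapped. Macrophage markers followed both times, 6 of 10 lower in the cast leg at day 2 and 9 of 10 higher at day 14; their summed signal in cast legs was 1169 to 3972 at day 2 and 2946 to 6521 at day 14.

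The 2 cohorts' leg differences were compared directly by an interaction term, which is built from the same legs as the comparisons above. At day 2, 17 members differed (14 higher, 3 lower in the tenotomy cohort), against 34.1% of all genes (19.8% higher, 14.3% lower). At day 7, 10 differed (8 higher, 2 lower), against 18.9% (11.1% higher, 7.82% lower), and at day 14, 9 did (8 higher, 1 lower), against 8.14% (5.17% higher, 2.98% lower). Itgb2 differed by 3.81 (SE 0.36, adjusted p = 2.472e-16) and Itgam by 3.29 (SE 0.34, adjusted p = 5.379e-14) at day 2, and 6 of the 8 leukocyte chains were called there, all higher. Itgae (0.74, from the first of its probe sets) was the only leukocyte chain called at day 7, and at day 14 none of the 8 was. Without right leg replicate 3 of day 14 the count of that day was 5 in place of 9, and with the actin ratio as covariate it was 4.

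**Figure D3:**
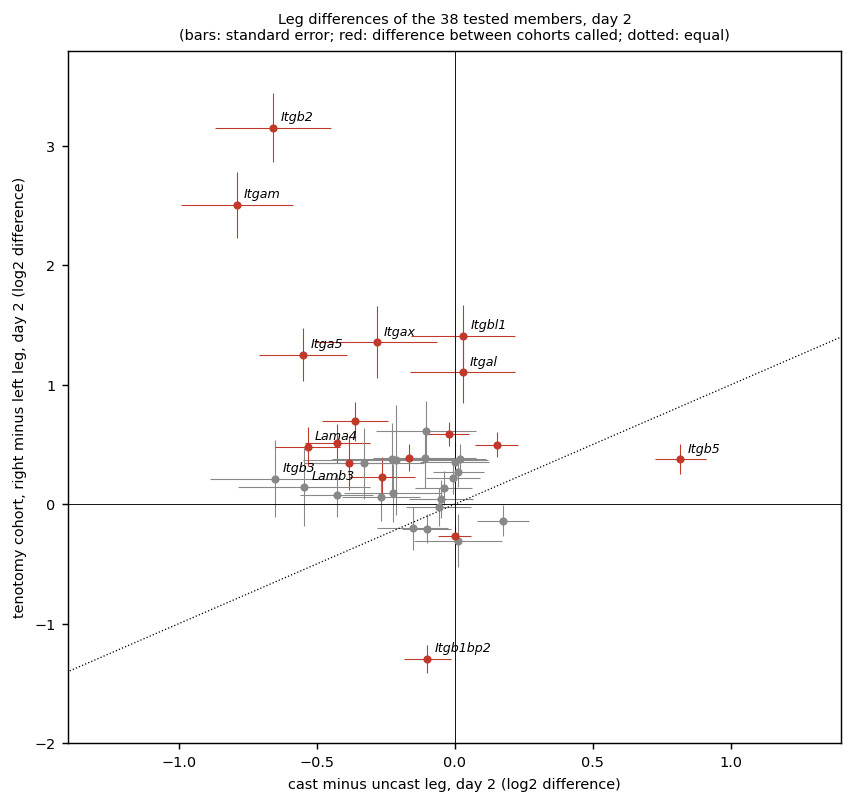
Right-minus-left log2 difference of each of the 38 tested members at day 2, in the casting cohort (x axis, cast minus uncast) and in the tenotomy cohort (y axis), with standard errors as bars; red points are members whose difference between cohorts was called and the dotted line marks equal differences. Itgb2 and Itgam lie at -0.66 and -0.79 on the x axis and at 3.15 and 2.51 on the y axis, and Itgb5 stands alone on the right at 0.82.

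Among the stromal and vascular integrins, Itga5 separated the legs of the tenotomy cohort early. It is the alpha chain of the fibronectin receptor of fibroblasts and growing vessels. Naive muscle read 18.28 to 44.92 (median 27.47), right legs of the tenotomy cohort at day 2 read 72.27, 115.3, 118.0, 128.6 and 181.1, and left legs 34.29, 42.7, 47.7, 55.44 and 60.24. Right legs lay above left legs without overlap, by 1.25 (SE 0.22, adjusted p = 9.418e-07). The difference was 0.66 (SE 0.18, adjusted p = 0.00254) at day 7, and 0.42 and not called at day 14. Over the alternatives the day 14 difference was 0.294 to 0.572, with adjusted p from 0.0178 to 0.391. A dimmer second probe set read 0.98, 0.46 and 1.10 at days 2, 7 and 14. The other probe sets, dimmer still, read 0.10 and 0.64 at day 14. Against sham, right legs were higher by 1.78, 1.24 and 1.26 at days 2, 7 and 14, each called and without overlap. Left legs were also called above sham, by 0.57 at day 7 and 0.84 at day 14. Their day 7 call was lost under 4 alternatives. On day 2 the uncast legs of cast mice, at 64.67 to 152.5, overlapped the right legs of the tenotomy cohort, and all 9 exceeded the naive range. Cast legs at day 2 were lower than uncast ones by -0.55 (SE 0.16, adjusted p = 0.005495, lower in 9 of 9 pairs), a call lost with the mean of probe sets (-0.26, adjusted p = 0.176). Of these 10 cast legs 9, at 59.37 to 85.19, also lay above the naive range, and 1, at 41.59, lay within it.

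Itgb5, the partner of Itgav that binds vitronectin, was the only member called higher in the cast leg at day 2. Cast legs ran from 766.8 to 1531 (median 1209) and uncast legs from 479.6 to 753.6 (median 699.7), with no overlap. The difference was 0.82 (SE 0.09, adjusted p = 3.138e-12, higher in 9 of 9 pairs) and 0.26 and 0.13, not called, at days 7 and 14. In the tenotomy cohort it was 0.38 (SE 0.13, adjusted p = 0.01208) at day 2, and 0.32 and not called without right-leg replicate 1; the difference between cohorts was called at -0.44 (SE 0.16, adjusted p = 0.01979). Itgb5 was the only stromal chain called in that direction at day 2.

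Itgav, the alpha chain shared by the vitronectin and TGF-beta-activating integrins, was higher in the right leg by 0.59 (SE 0.10, adjusted p = 6.23e-07) at day 2 and 0.34 (SE 0.09, adjusted p = 0.000836) at day 7. Right legs of day 2 read 556.0 to 702.0 and left legs 368.9 to 423.6, without overlap. With the actin ratio as covariate these differences were 0.31, still called, and 0.17, not called (adjusted p = 0.10), and the mean of probe sets gave 0.17 at day 7, also not called. Itgb3, its partner on platelets, osteoclasts and endothelium, was dim, with group means from 5.322 to 21.45. It was called at day 7 (0.75) and day 14 (1.02) although only 2 of 4 pairs were higher at day 14, and it was lower in the cast leg at day 2 (-0.65, lower in 6 of 9 pairs). Its second probe set, dimmer still, did not follow it at day 7 (-0.54) or in the cast leg at day 2 (0.10), and read 0.46 at day 14.

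The collagen receptor chain Itga1 was higher in the right leg at days 2 and 7 (0.51 and 0.38) and lower in the cast leg at day 2 (-0.42, lower in 9 of 9 pairs). Its dimmer second probe set did not follow it in the tenotomy cohort, with -0.81 at day 2. Itga10, a collagen receptor chain best known from cartilage, separated late. Right legs at day 14 read 43.12, 49.31, 50.9, 74.38 and 114.4 and left legs 17.28, 18.8, 20.46, 21.05 and 34.21, without overlap, a difference of 1.36 (SE 0.22, adjusted p = 7.114e-07); at days 2 and 7 it was -0.30 and 0.43, not called. Itga8, which binds nephronectin and is known from smooth muscle and fibroblasts, was also called at day 14 alone (0.73, SE 0.16, adjusted p = 0.0002559). Itga9, a tenascin and osteopontin receptor chain, was lower in the cast leg at day 2 (-0.43) and was not called between the legs of the tenotomy cohort. There its dimmer second probe set read 1.26, 0.81 and 0.63 at days 2, 7 and 14, and its dimmest 0.45, 0.26 and 0.01. Itgb8, which activates TGF-beta, was called at day 7 in the tenotomy cohort (0.56).

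Of the 9 stromal and vascular chains, 1 was higher and 4 were lower in the cast leg at day 2, 0 were called at day 7 and 1, Itgav (-0.25), was lower at day 14. That call was lost under 2 alternatives, with adjusted p up to 0.251. The actin ratio as covariate was 1 of them (-0.14, adjusted p = 0.16). At day 7 Itga7 and Itgb1bp2 were the only members of any class that passed limma's test, 7 of 38 had an unadjusted p under 0.05, and a fit with array weights called 7, as well as 2445 of all 16029 genes. In the tenotomy cohort 4, 5 and 3 of the 9 were higher in the right leg and 0 were lower. The shares called were 55.6%, 0% and 11.1% in casting, beside 24.3%, 8.78% and 13.3% of all genes, and 44.4%, 55.6% and 33.3% in the tenotomy cohort, beside 36.8%, 33.0% and 23.2%. Fibroblast markers moved with them: 5, 6 and 5 of 6 were higher in the right leg, and their summed signal at day 7 was 26680 to 37800 in right and 9758 to 26820 in left legs. Of 4 tenocyte markers 1, 4 and 3 were higher, with a summed signal of 5027 to 7284 in right legs of day 14 beside 798.6 to 3323 in left legs. Their part in the differences of Itga10 and of the other chains was not tested.

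Of the muscle pair, Itga7 was called in both cohorts and Itgb1 in the tenotomy cohort alone. Itga7, the laminin receptor chain of muscle fibres, was higher in the cast leg at day 7 (0.42, SE 0.09, adjusted p = 0.0002481) and day 14 (0.56, SE 0.08, adjusted p = 1.363e-07), in 7 of 7 and 9 of 9 pairs. Cast legs of day 14 ran from 391.3 to 549.2 (median 423.7) and uncast legs from 255.3 to 339.4 (median 309.7), so the groups did not overlap. At day 2 the difference was 0.15 and not called.

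Between the legs of the tenotomy cohort Itga7 was called at day 2 instead. Right legs at day 2 read 329.4, 377.0, 497.5, 539.6 and 604.4 and left legs 280.5, 308.3, 320.3, 330.9 and 382.8, with overlap and 4 of 5 pairs higher on the right (0.50, SE 0.11, adjusted p = 4.777e-05). At days 7 and 14 the leg differences were -0.07 and 0.14, not called. Its leg difference was larger in casting at both times, with differences between cohorts of -0.49 (SE 0.12, adjusted p = 0.00192) and -0.41 (SE 0.13, adjusted p = 0.0353), and smaller at day 2 (0.35, SE 0.13, adjusted p = 0.02985). Against sham, right legs were higher at day 2 (0.90, SE 0.13, adjusted p = 6.905e-09) and were called at day 14 under every alternative (0.425 to 0.612). At day 7 no alternative called them (0.159 to 0.335). Left legs were also called above sham at days 2 and 14, by 0.279 to 0.463 and 0.275 to 0.388 over the alternatives. The day 2 call was lost under 4 of these and the day 14 call under 1.

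Itgb1, the beta chain used by most matrix receptors, was not called between cast and uncast legs at any time. In the tenotomy cohort it was higher in the right leg at day 2 (0.39, SE 0.11, adjusted p = 0.002579) and day 14 (0.29, SE 0.11, adjusted p = 0.04827). The day 14 call was marginal: it was lost under 14 alternatives, among them the fixed animal block, no block, no filter, the actin ratio as covariate and leaving out any of 8 single arrays, with adjusted p up to 0.198 and differences of 0.23 to 0.31 in these. Neither side was called above sham. Left legs at day 14 read 480.8, 500.4, 517.3, 537.7 and 572.6 against 633.6 to 938.1 in sham, a difference of -0.55 (SE 0.10, adjusted p = 2.784e-05) without overlap. The right legs of day 14, at 502.1, 608.4, 684.0, 691.0 and 736.0, differed from sham by -0.26 (SE 0.10, adjusted p = 0.04125), a call lost under 6 alternatives, with -0.07 for the mean of probe sets (adjusted p = 0.665) and -0.17 without right-leg replicate 5.

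Itgb1bp2, melusin, is a muscle protein that binds the tail of Itgb1 and is known as a sensor of mechanical load in the heart. Among the members it fell most between legs at days 2 and 7 of the tenotomy cohort and at days 7 and 14 of casting. Naive muscle read 1605 to 2107 (median 1795), and right legs of the tenotomy cohort read 325.9, 400.0, 422.5, 472.3 and 514.1 at day 2, 546.4 to 861.1 (median 741.8) at day 7 and 979.3 to 1396 at day 14. Left legs read 927.0, 957.5, 976.9, 1096.0 and 1288.0 at day 2, so both legs were below naive and sham muscle and the right legs were lowest. The right-minus-left difference was -1.29 (SE 0.12, adjusted p = 3.026e-17) at day 2, -0.95 (SE 0.10, adjusted p = 7.047e-14) at day 7, in 5 of 5 and 7 of 7 pairs, and -0.18 and not called at day 14. Muscle fibre markers also fell in the right legs, 6 of 6 against sham at days 2 and 7 (medians -0.81 and -0.90), and 3 and 2 of 6 against the left legs (medians -0.50 and -0.33). Their part in the fall of melusin was not tested.

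In casting, melusin showed no called difference at day 2 (-0.10), when cast legs (767.8 to 1103) and uncast legs (746.8 to 1220) were both low. It was lower in the cast leg at day 7 (-0.80, SE 0.10, adjusted p = 5.877e-10) and day 14 (-0.59, SE 0.09, adjusted p = 3.122e-07), in every pair. Cast legs of day 7 ran from 619.6 to 824.5 and uncast legs from 732.5 to 1549, overlapping through 1 uncast array. The cohorts differed at day 2 by -1.20 (SE 0.14, adjusted p = 1.836e-11). Itgb1bp1, also an Itgb1 tail-binding protein, was lower in the right leg at each time (-0.26, -0.31 and -0.46), and lower in the cast leg at day 14 (-0.18).

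**Figure D4:**
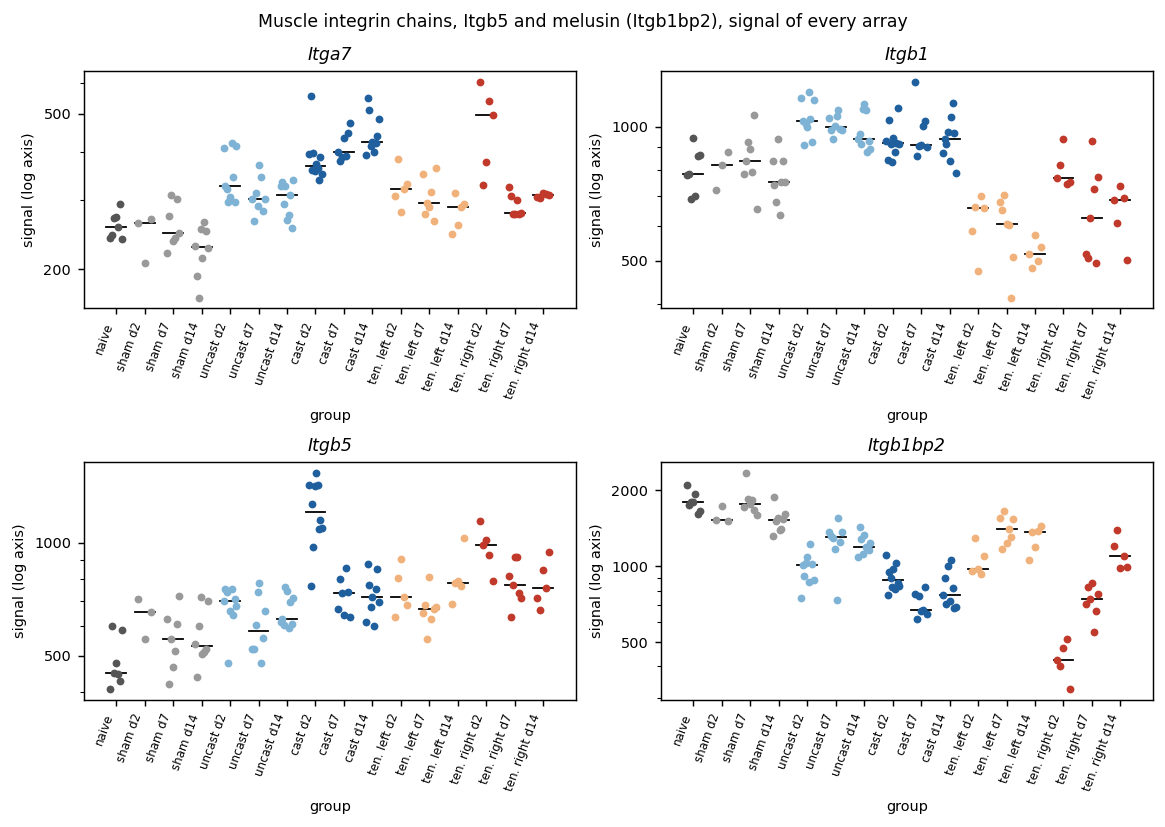
Signal of Itga7, Itgb1, Itgb5 and Itgb1bp2 on every array (points; log axis) in the 16 groups, with a line at each group's median. Itgb1bp2 is lowest in the right legs of the tenotomy cohort at day 2, between 325.9 and 514.1, and Itgb5 is highest in the cast legs of day 2, between 766.8 and 1531.

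Of the laminins, Lamb1 and Lama4 were called between the legs of the tenotomy cohort at all 3 times and Lama2 at day 14. Lamb1 is a beta chain of muscle and vessel laminins. Its signal was 182.0 to 585.8 (median 344.2) in right legs of the tenotomy cohort at day 7. Left legs read 126.9 to 199.7 (median 160.9), beside 132.6 to 172.5 in naive muscle. In all, 7 of 7 pairs were higher on the right, and the groups overlapped through 1 right leg. The differences were 0.70 (SE 0.16), 1.14 (SE 0.14, adjusted p = 3.027e-11) and 0.81 (SE 0.17) at days 2, 7 and 14, all called; with the actin ratio as covariate that of day 2 was 0.39 and not called (adjusted p = 0.082).

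Lama4, the alpha chain of vessel and fat laminins, was higher by 0.48, 0.74 and 0.86. Right legs at day 14 read 190.4, 242.0, 265.8, 295.7 and 297.6 and left legs 119.0, 125.9, 138.9, 150.6 and 157.9, without overlap (SE 0.16, adjusted p = 1.703e-05). The day 2 call was lost with the actin ratio as covariate (0.33, adjusted p = 0.17), without right-leg replicate 3 (0.34) and without left-leg replicate 3 (0.42). In the cast leg both chains were lower at day 2, Lama4 by -0.53 (SE 0.12, adjusted p = 0.0001869) and Lamb1 by -0.36 (SE 0.12, adjusted p = 0.01645), each in 9 of 9 pairs. The cohorts' leg differences in Lamb1 differed by 1.06, 1.48 and 0.77 and those in Lama4 by 1.01, 0.96 and 0.77, called at all 3 times.

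Lama2, the alpha chain of the fibre's basement membrane, whose loss causes a congenital muscular dystrophy, was called at day 14 only. Right legs read 247.7, 313.1, 326.9, 346.4 and 351.3 and left legs 184.0, 198.7, 199.3, 218.9 and 222.5, without overlap, a difference of 0.61 (SE 0.13, adjusted p = 0.0001024). Lamb2, Lamc1 and Lama5 were not called between legs in either cohort. Their group means ranged from 203.7 to 316.6, from 251.4 to 468.3 and from 108.2 to 201.6. Lamc3 was the only one of the other laminins called between legs, at day 2 of the tenotomy cohort (0.62). Its second probe set, nearly as bright, read 0.08 there, and both were dim, with mean signals of 14.95 and 13.46. Among the epithelial and platelet chains, Itga6, a laminin receptor chain also found on vessels, was the only one called between legs, at day 2 of the tenotomy cohort (0.38). In total 2, 2 and 3 of the 6 laminins of muscle and vessel were higher in the right leg and 0 were lower, which is 33.3%, 33.3% and 50% called beside 36.8%, 33.0% and 23.2% of all genes. In casting 2, 0 and 0 were called, both lower, beside 24.3%, 8.78% and 13.3% of all genes.

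Itgbl1, a secreted protein built from repeats like those of integrin beta chains, known from cartilage, tendon and tumour stroma, was the member with the largest leg difference at days 7 and 14 of the tenotomy cohort. Left legs of the tenotomy cohort read 20.1, 45.41, 47.84, 50.78 and 82.23 at day 2, below the 3 sham arrays of 108.9, 111.9 and 119.9. Right legs at day 2 read 75.49, 100.5, 127.3, 167.9 and 202.7, on both sides of sham. Right legs then ran from 115.4 to 447.6 at day 7 and read 203.3, 231.2, 300.4, 355.1 and 524.0 at day 14, while left legs at day 14 read 33.63, 71.54, 80.28, 92.93 and 123.2. The leg difference was 1.41 (SE 0.26, adjusted p = 2.819e-06), 2.21 (SE 0.22, adjusted p = 6.625e-15) and 1.97 (SE 0.26, adjusted p = 2.322e-09) at days 2, 7 and 14, higher on the right in 5 of 5, 7 of 7 and 4 of 4 pairs. At day 2 it consisted of low left legs (-1.25 against sham, SE 0.31, adjusted p = 0.003862) more than of high right legs (0.16 against sham, not called). Cast and uncast legs were not called apart at any time.

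**Figure D5:**
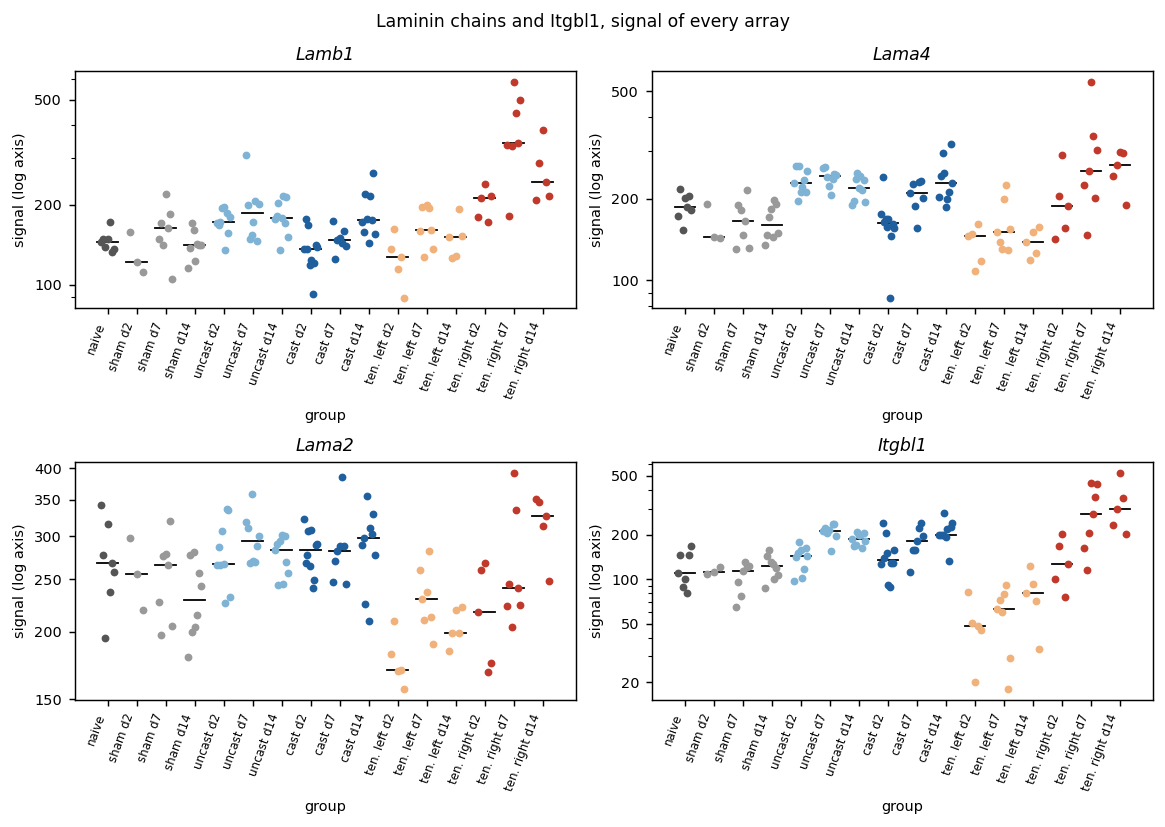
Signal of Lamb1, Lama4, Lama2 and Itgbl1 on every array (points; log axis) in the 16 groups, with a line at each group's median. The right legs of the tenotomy cohort are highest for Lamb1 at day 7 (median 344.2) and for Itgbl1 at day 14 (median 300.4), and the left legs are lowest for Itgbl1.

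Each side of the tenotomy cohort was also set against sham of the same day. Both comparisons share the sham arrays, and they share the legs with the comparison above. Right legs had 14 members called at day 2 (12 higher, 2 lower), against 35.1% of all genes (19.6% higher, 15.5% lower). At day 7 they had 24 (21 higher, 3 lower), a share of 63.2% beside 41.3% of all genes (23.6% higher, 17.7% lower), and at day 14 they had 18 (15 higher, 3 lower), 47.4% beside 36.0% (20.6% higher, 15.3% lower). With the actin ratio as covariate these counts were 8, 13 and 11, and those of all genes fell too, to 4101, 3759 and 4028 of 16029. The ratio averaged -0.02, 0.11 and 0.08 in right legs at days 2, 7 and 14, and -1.31, -1.275 and -1.12 in sham. Their ranges did not overlap on any day, so the ratio and the comparison can hardly be told apart here.

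Left legs had 7 members called against sham at day 2 (3 higher, 4 lower), beside 10.1% of all genes (4.36% higher, 5.69% lower). They had 9 at day 7 (6 higher, 3 lower), beside 19.2% (9.71% higher, 9.47% lower), and 12 at day 14 (9 higher, 3 lower), beside 20.8% (10.0% higher, 10.8% lower). Without sham replicate 2, 1 of the 3 sham arrays of day 2, the day 2 count was 3. Of the 8 leukocyte chains limma called 0 in left legs at any time, and 2, 1 and 1 had an unadjusted p under 0.05. Itga8 was higher by 0.79, 0.74 and 0.41 and Lama5 by 0.68, 0.52 and 0.51, and Itgb1 (-0.40, -0.52 and -0.55) and Itgbl1 (-1.25, -0.88 and -0.65) were called lower, at all 3 times. The Itgb1 call of day 2 was lost under 7 alternatives (adjusted p up to 0.579), with -0.15 for the mean of probe sets, which also ended its day 7 call on this side (-0.25, adjusted p = 0.0598). The Itgbl1 call of day 14 was lost under 6 (adjusted p up to 0.299), with -0.40 without left-leg replicate 5. The same 4 genes read, in right legs against sham, 0.83, 1.06 and 1.14 for Itga8, 0.55, 0.38 and 0.46 for Lama5, -0.01, -0.40 and -0.26 for Itgb1 and 0.16, 1.32 and 1.32 for Itgbl1. Itga8 and Lama5 were thus called higher on both sides at all 3 times, and Itgbl1 was called lower in left and higher in right legs at days 7 and 14. The right-leg Itgbl1 call of day 7 was lost with the actin ratio as covariate (0.71, adjusted p = 0.0925). Pericyte and smooth muscle markers moved with Itga8 and Lama5: 3 of 5 were higher than sham on each side at each time, with median differences of 0.79, 1.17 and 1.08 in right and 0.54, 0.96 and 0.80 in left legs. Of 6 endothelial markers 3 were lower in right legs at each time, and 3, 4 and 3 in left legs. The part of these cells in the differences was not tested.

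Between sham and naive muscle limma called 0 of 38 members at days 2, 7 and 14, beside 0.0%, 0.63% and 2.23% of all genes, and 3, 1 and 7 members had an unadjusted p under 0.05. With only these groups in the model, 1 member was called at day 14.

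The uncast legs of cast mice, which were left untreated, differed from naive muscle in 20 members (19 higher, 1 lower), 52.6% beside 32.6% of all genes (19.9% higher, 12.7% lower). Itga5 led with 1.70 (SE 0.15, adjusted p = 2.137e-16), followed by Lama3 (1.06), an epithelial laminin chain, and by Itgam (0.87), Itga8 (0.86) and Itgb2 (0.82). Melusin was the 1 lower member (-0.67, SE 0.08, adjusted p = 9.796e-11). Muscle fibre markers fell with it, 6 of 6, with a median difference of -0.93. Of the 6 laminins of muscle and vessel 5 were higher, by 0.24 to 0.51, as were both muscle chains, Itga7 (0.29) and Itgb1 (0.34). The actin ratio, which was -1.19 in naive muscle, was -0.73, -0.49 and -0.33 in the uncast legs at days 2, 7 and 14, and 8 of 10 macrophage markers, 3 of 5 pericyte and smooth muscle, 3 of 4 tenocyte and 3 of 3 Schwann cell markers were higher there, while 1 pericyte marker was lower. Their part in these differences was not tested. The cohort, its handling and the day cannot be told apart from an effect on the uncast leg, because naive mice form 1 group of their own.

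Genes that work with integrins were counted from 3 lists: proteins of the adhesion complex inside the cell, matrix ligands, and the ligands of leukocyte chains. Of the 32 tested adhesion-complex genes, 18, 15 and 12 were higher in the right leg of the tenotomy cohort at days 2, 7 and 14, and 5, 6 and 1 were lower. These are 71.9%, 65.6% and 40.6% of the list, beside 36.8%, 33.0% and 23.2% of all genes. Fermt3, the kindlin of blood cells that switches on Itgb2 integrins, was higher by 3.11 (SE 0.25, adjusted p = 4.172e-20) at day 2. In casting 2, 1 and 2 were higher and 10, 1 and 1 lower, or 37.5%, 6.25% and 9.38%, beside 24.3%, 8.78% and 13.3% of all genes. Fermt3 rose on the cast side at day 14 by 0.86 (SE 0.18, adjusted p = 0.0004267).

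Of the 22 tested matrix and basement-membrane ligands, in the right leg 10, 13 and 13 were higher and 0, 1 and 0 lower at days 2, 7 and 14, which is 45.5%, 63.6% and 59.1% beside the 36.8%, 33.0% and 23.2% of all genes. Periostin (Postn) rose by 4.22, 4.19 and 3.73, and fibronectin (Fn1), the ligand of the Itga5 receptor, by 2.78 and 2.42 at days 7 and 14. Tenascin C (Tnc), a ligand of Itga9, rose by 2.82 at day 7, and thrombospondin 1 (Thbs1) by 2.29 at day 2. In casting 11 of 22 were lower and 0 higher at day 2, with Tnc at -0.98 and the vessel collagen Col15a1 at -0.80; 2 were lower at day 7 and 1 at day 14, nephronectin (Npnt) at both times. As shares these casting counts are 50%, 9.09% and 4.55%, beside 24.3%, 8.78% and 13.3% of all genes. Of 11 tested ligands and counter-receptors of leukocyte chains, 4, 4 and 3 were higher in the right leg and 1, 1 and 0 lower. These shares of 45.5%, 45.5% and 27.3% lie near those of all genes. The surface protein Thy1 was lower in the cast leg at day 2 (-0.87) and day 7 (-0.66).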

How the data were processed

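RNA of mouse gastrocnemius was measured on Affymetrix Mouse Genome 430 2.0 arrays. The deposited values are linear signal intensities, 1 per probe set and array, made by the authors with MAS5 in GCOS, per the submitters' processing notes. Trimmed means (2% cut at each end) of 99.955 to 99.965 show that each array was scaled to a common mean; the step is not described further in the sources used here. Of 45101 probe sets, 34958 list 1 gene, 932 several and 9211 none; only the first were used, with the probe set of the highest mean per gene. A gene was tested where its signal exceeded the array's 40th percentile in at least 5 arrays. Values were taken as log2(signal + 3.982), so fold changes of dim genes are understated. The number of arrays limits the precision.

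All 111 arrays entered 1 limma model (limma 3.58.1, statmod 1.5.0, R 4.3.3; trend), with a mean per group, the animal as a random block (correlation 0.0965) and Benjamini-Hochberg adjustment over 16029 genes. Animal numbers in the labels pair the 2 legs of 41 mice; residuals of paired legs correlated at 0.0634 on average, beside -0.0085 for unpaired ones. Tables and plots were made with Python 3.11.15, pandas 2.3.3 and matplotlib 3.10.9. The model was also run on simulated independent arrays, with shifts of 2-fold or more and no correlation between legs. That run did not cover paired legs or smaller differences. Members, classes and lists were chosen with earlier results of these data known. Named were members fixed by role, and some of the 5 called members and 3 called pathway genes with the largest differences in each comparison. Among the latter Itgb4, Itga3, Flna, Fbln1, F11r, Jam3, Fermt2 and Tns1 were not described. Itgal, Itgb8, Itgae, Itga6, Itgb1bp1 and Lamc3, where outside both choices, were singled out after their values were seen. Alternatives were 2 other pseudocounts, quantile normalization, no filter and a stricter one, the mean of probe sets, array weights, other treatments of the animal block, only the groups compared, and leaving out arrays. The beta-actin ratio as a covariate, and leaving out 1 cast array of day 2, were added after seeing the data. Itga11 and Itgad were not analysed here.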

Additional observations from a re-analysis of the deposited data

Results flagged for a closer look

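Over 10 members, 150 sets were checked, each the values of 1 gene in 1 group of 4 to 10 arrays. In these, 15 values stood far from the rest of their group, where chance sets apart about 1 in 20 sets. Some arrays recur among the 15, and the sets are not independent, since the genes share arrays. Replicate 10 of the cast legs of day 2 did so for 3 genes, with Itgb2 at 120.5, Itga7 at 555.4 and Itga5 at 41.59. Replicate 5 of the uncast legs of day 7 was low for Itgb1bp2 (732.5) and Itgbl1 (155.9). Low values also stood apart for Itgam in naive replicate 3 (7.697) and in left-leg replicate 6 of the tenotomy cohort at day 7 (2.746). Itgax was low in left-leg replicate 5 of day 7 (3.789), Itgb5 in uncast replicate 4 of day 2 (479.6), Itga5 in sham replicate 7 of day 7 (13.61) and Lama4 in cast replicate 6 of day 2 (86.25). Itgbl1 read 132.4 in cast replicate 7 of day 14. High values were Itgax in cast replicate 6 of day 14 (58.94), Itgb1bp2 in sham replicate 2 of day 7 (2342) and Lamb1 in uncast replicate 1 of day 7 (309.4).

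The leg difference (right minus left) of 17, 10 and 9 members differed between the tenotomy and the casting cohort at days 2, 7 and 14 in limma's interaction test. At day 2 the tenotomy value exceeded the casting value by 3.812 for Itgb2, 3.295 for Itgam, 1.803 for Itga5, 1.64 for Itgax, 1.38 for Itgbl1, 1.058 for Lamb1, 1.015 for Lama4 and 0.3471 for Itga7, and differed by -1.196 for Itgb1bp2 and -0.4417 for Itgb5. At day 7 it exceeded it by 2.44 for Itgbl1, 1.478 for Lamb1, 0.9635 for Lama4 and 0.9532 for Itga5, and the Itga7 difference was -0.4913. At day 14 the differences were 1.824 for Itgbl1, 0.772 for Lamb1, 0.7684 for Lama4 and -0.4129 for Itga7.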

How the results depend on the processing

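With the animal as a fixed replicate block, 9, 2 and 6 members were called between cast and uncast legs at days 2, 7 and 14, 17, 14 and 8 between right and left legs, and 18, 9 and 7 between cohorts, so no count moved by over 1.5 times; with no block the counts were 9, 2 and 4, 16, 14 and 10, and 16, 9 and 7. In casting at day 7, 2 members were called, against 7 with array weights, 4 with the mean of probe sets and 4 with only the groups compared. With the actin ratio as covariate, 8, 13 and 11 members were called between right legs and sham (14, 24 and 18 without it), and 6 and 4 between cohorts at days 7 and 14 (10 and 9 without it). The mean of probe sets gave 5 at day 14 between cohorts. Between sham and naive muscle at day 14, only the groups compared gave 1 call in place of 0. Leaving out 1 array at a time gave 3 to 7 calls for left legs against sham at day 2, 10 to 11 at day 14, 5 to 11 between cohorts at day 14, 13 to 18 at day 2, 10 to 14 and 16 to 18 for right legs against sham at days 2 and 14, 13 to 18 and 8 to 12 between right and left legs at days 2 and 14, and 10 between cast and uncast legs at day 2 without replicate 10 of the cast legs. Differences that changed sign were, with the mean of probe sets, Itga4 between legs at day 7 (-0.0216), Itgav in right legs against sham (-0.061, -0.0515 and -0.0542 at days 2, 7 and 14) and in left legs (-0.2171 and -0.298 at days 7 and 14), and Lamb1 in right legs at day 2 (-0.2031) and left legs at day 14 (-0.5019); and, with the actin ratio, Itgav in right legs at day 2 (-0.0046) and left legs at day 7 (-0.0293). The averaged probe sets include dim ones; otherwise the cause was not tested. Signals near the array's 40th percentile, as for Itgax, Itgal and Itgb3, limit what can be seen of those genes.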
